A study of Mus musculus with 12 samples.

Results

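A set of 10 genes of the lipid droplet surface were followed in the livers of mice on chow or a Western diet, by their symbols in the count table. They are the CIDE protein genes Cidea, Cideb and Cidec, the perilipin genes Plin2, Plin3, Plin4 and Plin5, the lipase gene Pnpla2 and the genes of its inhibitors, G0s2 and Hilpda. All 10 members were found among the 50499 genes listed, and all 10 were among the 11934 genes tested.

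The 12 liver RNA-seq libraries fall into 4 groups of 3, all from male C57bl/6 mice (C57Bl/6NCrl in the protocol), put on their diet at 6 weeks of age. Chow null and chow siAATF mice had chow and normal water, and Western null and Western siAATF mice had a Western diet and sugar water. After 12 weeks each mouse received AAV8 particles with the TBG promoter by tail vein, and the livers were collected after a further 12 weeks. The null vector carried no insert (labelled WT), and the siAATF vector was meant to silence Aatf (labelled KD), a gene of nucleolar function and transcription. The TBG promoter drives expression in hepatocytes, so other liver cells were not a target of the vector. Replicate numbers run from 1 to 3 within a group, and nothing in the labels ties each to a separate mouse, so a p-value reflects the spread of these samples, which may be technical.

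Hepatocytes store triglyceride in lipid droplets, whose single phospholipid layer is coated with proteins. Perilipins cover the droplet and limit the access of lipases, CIDE proteins act where droplets touch and let lipid pass from small to large ones, and ATGL (Pnpla2) takes the first fatty acid from triglyceride. Droplet proteins are known to rise in fatty liver, and several of their genes are targets of the lipid-sensing PPAR receptors.

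Total counts per library ran from 1646853 to 13469819, and the 18S ribosomal RNA gene took 0.871% to 50.8% of them. Levels are given as CPM, read counts scaled to a common library size with TMM factors, where 3 counts stand for 0.185 to 1.69 CPM. Aatf itself did not fall with the siAATF label, with 27.0 to 28.2 CPM against 21.1 to 30.0 CPM on the Western diet (log2 0.06 ± 0.25) and 24.6 to 40.5 CPM against 26.5 to 36.8 CPM on chow (0.11 ± 0.24). The siAATF and null groups are therefore named as labelled, and directions between them rest on the label. Western siAATF libraries stood apart from each other. Replicate 1 held 1862 CPM over 5 striated muscle genes (Ckm, Acta1, Myh4, Mb and Tnnt3), against 0 to 3.63 CPM in the other 11 libraries. Replicate 3 had the highest level of all 12 libraries for 5 of the 10 members, where it had the highest level of 12.7% of the genes tested. Results that rest on this group are therefore given with and without these libraries.

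**Figure D1:**
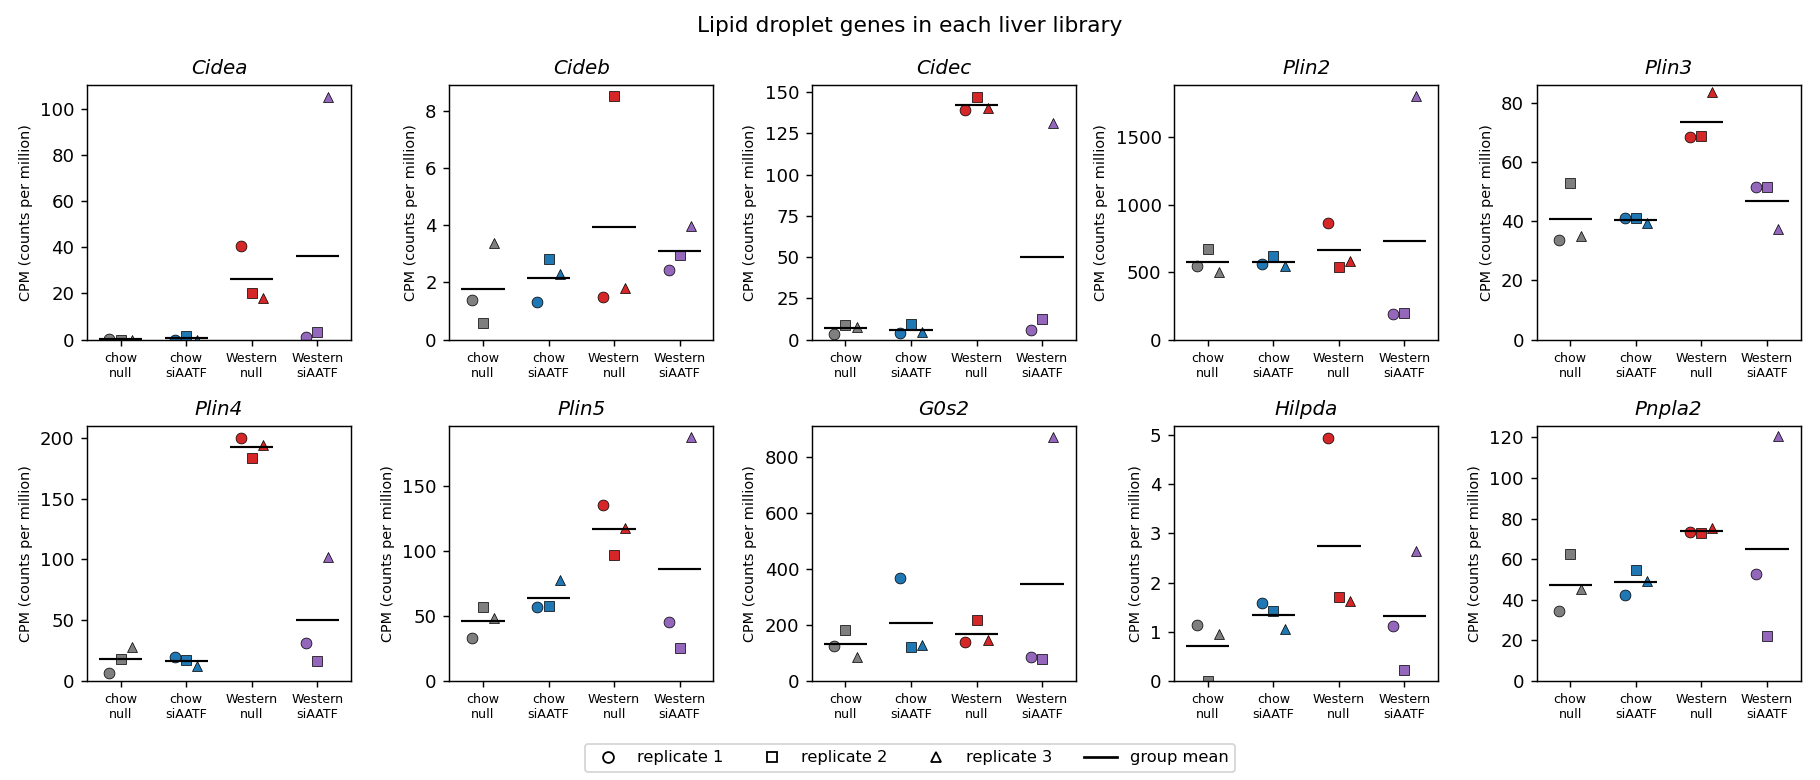
Level of each of the 10 genes (y axis, CPM, linear from 0) in the 4 groups (x axis); points are libraries, shapes give the replicate number and bars are means of 3. Cidec and Plin4 sit near 140 and 190 CPM in the Western null libraries and below 30 CPM in chow libraries, while the 3 Western siAATF libraries spread over most of the range for Plin2, Cidec, Cidea and G0s2.

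The first comparison, Western null against chow null, asks what the diet did. Of the 10 members 3 rose, Cidec (22.1-fold), Plin4 (10.9-fold) and Plin3 (1.85-fold), and 0 fell by edgeR's quasi-likelihood test. Among all genes tested 6.44% were higher and 6.77% lower by the same rule. At an unadjusted p under 0.05 there were 5 members higher and 0 lower, against 13.6% of genes higher. All 10 estimates were above 0, as were 48.4% over all genes, and the members' median log2 difference was 1.12 against -0.03 over all genes. In 7 members each Western null library lay above each chow null library, which held for 17.7% of genes. The members were chosen with earlier results of these data known, so these shares describe the list and do not test it. More cells of a type and more RNA per cell cannot be told apart in tissue RNA.

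Cidec encodes the CIDE protein known for large droplets in fat cells and in steatotic hepatocytes. It stood at 3.66, 9.03 and 7.66 CPM in the chow null replicates 1 to 3 and at 139, 147 and 140 CPM in Western null. The Western null libraries were close to each other and far above every chow library. The log2 difference was 4.47 ± 1.08 (SE; 95% interval 2.03 to 6.91; adjusted p = 0.0275). The direction held without each library in turn, but the call did not: the adjusted p was 0.113, 0.0563 and 0.0975 without chow null replicates 1, 2 and 3, and 0.0638, 0.0679 and 0.0562 without Western null replicates 1, 2 and 3.

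Cidea, a CIDE protein of brown fat that also appears in fatty liver, was counted in 1 of 3 chow null libraries, with 2 reads (0.228, 0 and 0 CPM). In Western null it stood at 40.5, 20.1 and 18.1 CPM, from 82, 59 and 202 reads. The groups did not overlap: 343 reads against 2 gave a ratio of 234 after scaling, with a 95% counting interval of 64.4 to 1944. That interval leaves out the spread between libraries. By edgeR's quasi-likelihood test, which includes the spread, the log2 difference was 7.84 ± 2.40 (95% interval 2.38 to 13.30). The difference missed the threshold over all genes (adjusted p = 0.0649). It passed without Western siAATF replicate 3, a library outside this comparison that enters the shared estimate of spread (adjusted p = 3.92e-05), without Western siAATF replicate 1 (adjusted p = 0.0267) and with the 2 compared groups fitted by themselves (adjusted p = 1.37e-06). Cideb, which acts in the lipidation of VLDL, was low throughout, at 1.37, 0.565 and 3.40 CPM in chow null and 1.48, 8.52 and 1.80 CPM in Western null. Its groups overlapped (log2 0.87 ± 0.67; adjusted p = 0.41). Other genes (Nop9, Ltb4r2) cover 47.7% of the Cideb span, so its count is uncertain.

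Plin4, a perilipin of fat and muscle that coats small droplets, rose from 6.51, 18.1 and 28.1 CPM in chow null to 200, 184 and 194 CPM in Western null. The groups lay far apart (log2 3.45 ± 0.66; 95% interval 2.01 to 4.89; adjusted p = 0.00661). Its call was the only one of the 3 kept without each of the 12 libraries in turn. Plin3, a perilipin of the cytosol that joins new droplets, rose from 33.7, 53.1 and 35.1 CPM to 68.6, 68.8 and 83.6 CPM. The rise was small, with no overlap (log2 0.88 ± 0.23; adjusted p = 0.0201). Its call was lost without chow null replicate 1 or 3 (adjusted p = 0.0896 and 0.104) and without Western null replicate 2 or 3 (adjusted p = 0.0518 and 0.0925).

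Plin5, which ties droplets to mitochondria in tissues that burn fat, stood at 32.8, 56.5 and 48.1 CPM in chow null and 135, 96.8 and 118 CPM in Western null. The libraries did not overlap, but the difference missed the threshold (log2 1.36 ± 0.56; adjusted p = 0.135). As with Cidea, it passed in the compared groups alone (adjusted p = 0.00128) and without Western siAATF replicate 3 or 2 (adjusted p = 0.00152 and 0.0309). Plin2, the main perilipin of hepatocytes, was at 548, 671 and 502 CPM in chow null and 860, 540 and 580 CPM in Western null. These overlap: only Western null replicate 1 lay above the chow null range, and the estimate of 0.20 ± 0.71 (adjusted p = 0.881) went to -0.02 without it. The 95% interval of -1.37 to 1.77 is wide, so a lack of response of Plin2 is not shown.

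Among the lipolysis genes, Pnpla2 stood at 34.5, 62.7 and 45.0 CPM in chow null and at 73.6, 72.9 and 75.3 CPM in Western null. It did not overlap, yet it did not pass (log2 0.66 ± 0.42; adjusted p = 0.322). G0s2, a small protein that binds and inhibits ATGL, was at 123, 183 and 85.0 CPM against 139, 217 and 144 CPM, with overlap (0.37 ± 0.89; adjusted p = 0.825). Hilpda, another inhibitor of ATGL and a known hypoxia-induced gene, had 10, 0 and 11 reads in chow null and 10, 5 and 18 in Western null. At 0 to 1.14 CPM against 1.62 to 4.94 CPM its libraries did not overlap (1.46 ± 0.75; adjusted p = 0.216), but these are few reads.

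**Figure D2:**
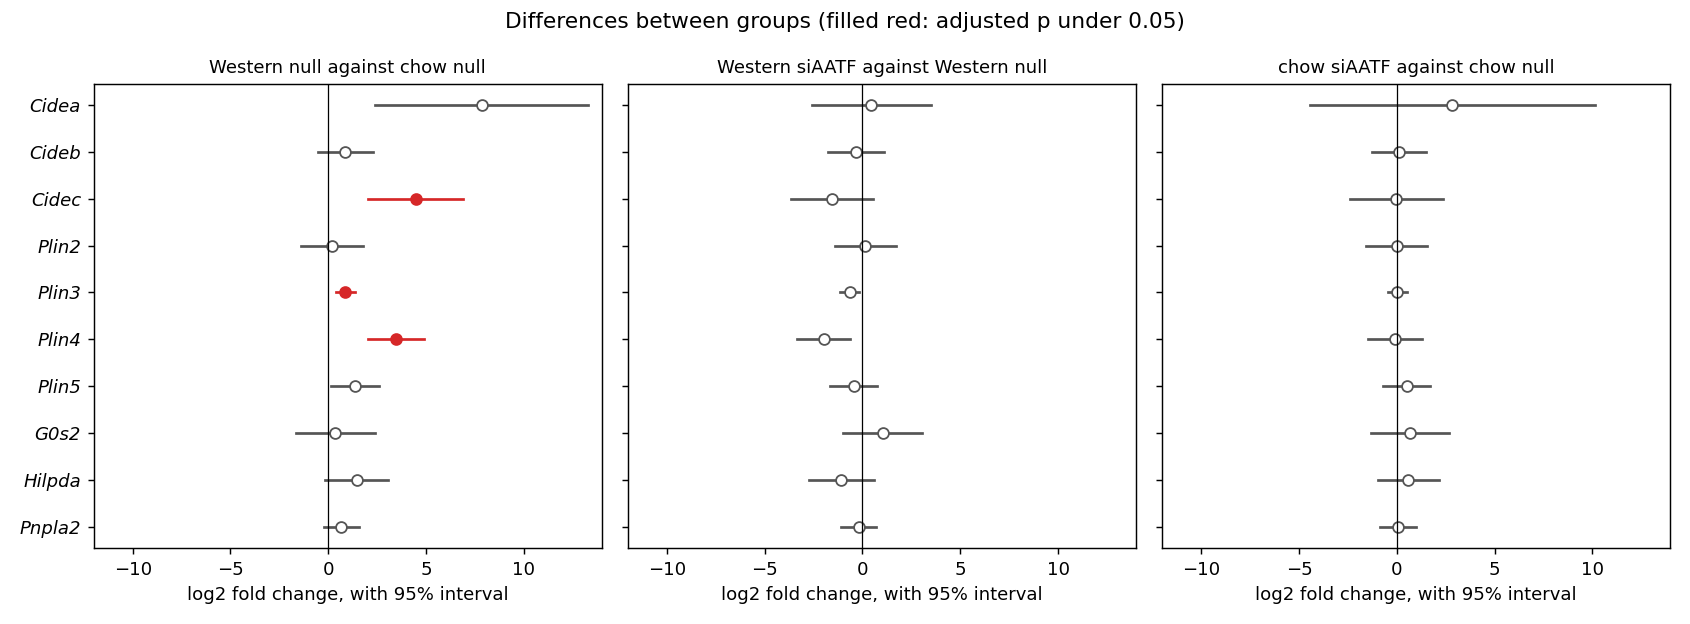
Log2 fold change (x axis) of each gene (y axis) in the 3 comparisons that the series names; lines are 95% intervals and filled red points passed at an adjusted p of 0.05. Only Cidec, Plin3 and Plin4 are filled, in Western null against chow null, and the intervals of Cidea are the widest.

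The promoters of the genes that rose most are shown beside those of Plin2 and Plin5, which did not pass, to compare their letters. Each line gives the 250 bases before a transcript start, 5′ to 3′ on the gene's strand, from the RefSeq promoter table (build GRCm38.p6, which differs from the GRCm39 build of the counts); 9 of the 10 members had an entry that was used. Capitals mark the nuclear receptor motif AGGTCA on either strand. Cidec has 2 starts in the table, at chr6:113435761-113436010 and chr6:113434765-113435014, Plin4 lies at chr17:56109783-56110032, Plin2 at chr4:86670060-86670309 and the first start of Plin5 at chr17:56117549-56117798, all on the minus strand.
Cidec start 1: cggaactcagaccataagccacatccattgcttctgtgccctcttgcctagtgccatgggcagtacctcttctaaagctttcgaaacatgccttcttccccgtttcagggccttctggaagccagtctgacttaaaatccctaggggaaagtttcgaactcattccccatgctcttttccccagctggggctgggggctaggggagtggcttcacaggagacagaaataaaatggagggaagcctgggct
Cidec start 2: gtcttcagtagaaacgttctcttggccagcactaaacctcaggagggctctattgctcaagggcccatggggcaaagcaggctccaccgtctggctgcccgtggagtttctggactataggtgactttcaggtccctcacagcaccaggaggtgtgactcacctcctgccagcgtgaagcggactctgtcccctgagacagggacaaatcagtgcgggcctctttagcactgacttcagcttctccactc
Plin4: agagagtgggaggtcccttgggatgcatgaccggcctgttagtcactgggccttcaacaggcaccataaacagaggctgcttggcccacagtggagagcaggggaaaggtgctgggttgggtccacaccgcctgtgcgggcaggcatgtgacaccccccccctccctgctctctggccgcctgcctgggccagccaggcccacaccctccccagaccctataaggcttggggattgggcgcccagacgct
Plin2: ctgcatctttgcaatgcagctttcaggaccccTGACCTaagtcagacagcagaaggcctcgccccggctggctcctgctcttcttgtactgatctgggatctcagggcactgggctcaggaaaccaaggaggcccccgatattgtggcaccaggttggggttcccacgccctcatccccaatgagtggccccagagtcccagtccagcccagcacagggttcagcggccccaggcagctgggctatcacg
Plin5 start 1: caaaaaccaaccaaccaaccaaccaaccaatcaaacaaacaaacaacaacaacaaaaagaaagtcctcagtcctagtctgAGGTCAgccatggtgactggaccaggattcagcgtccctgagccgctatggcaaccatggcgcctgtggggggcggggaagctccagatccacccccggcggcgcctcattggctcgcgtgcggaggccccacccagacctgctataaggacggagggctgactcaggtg

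AGGTCA was found in Plin2, from 218 bases before the start, and in Plin5, from 170 bases before it. It was in neither Cidec window, nor in those of Plin4 and Plin3, which also rose. It was absent too from the windows of Cideb, G0s2, Hilpda and Pnpla2, which did not pass, and from the second Plin5 start. Of 32851 promoter windows of this length 14% hold it. The PPAR-type repeat AGGTCANAGGTCA (either strand, which contains the shorter motif) was in 0 of the members' windows and 0.0335% of all. TATAAA, on either strand, was found in Cideb alone among them (12.4% of all), and ACGTG, the core letters of hypoxia response elements, in the second Hilpda start alone (16.6% of all). G and C made up 52.8% and 56.8% of the Cidec windows and 65.2% of that of Plin4, against a median of 52.4%. These matches describe letters in a short window, not sites of binding.

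The second comparison, Western siAATF against Western null, asks what the silencing vector did on the Western diet, between libraries as labelled. By edgeR's quasi-likelihood test 0 of the 10 members passed, where 0.31% of genes were higher and 0.561% lower. At an unadjusted p under 0.05 there were 2 lower (Plin3 and Plin4) and 0 higher, against 5.09% of genes lower, and limma-voom called 0. DESeq2, which gave no adjusted p for Cidea, Cidec and Plin2 in any comparison, called 1, Plin4. The 3 libraries differed among themselves. Of the 7 members that the diet had set apart, replicate 1 lay within the chow null range for 5 and between the null groups for 2. Replicate 2 lay within that range for 3, below it for 2 and between the groups for 2. Replicate 3 lay above the Western null range for 3, within it for 1, between the groups for 2 and within the chow null range for 1. The 7 were picked by the same null libraries that they are placed against, and no share of all genes was computed. These counts therefore describe the libraries and are not a test of a return toward chow.

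In the Western siAATF libraries 1 to 3, Cidec was counted at 5.97, 12.2 and 131 CPM. The first of these was inside the chow null range and the last just under the lowest Western null library, at 139 CPM (log2 -1.56 ± 0.93; adjusted p = 0.623). Without replicate 3 the difference was -3.98 (adjusted p = 1.33e-05). Cidea followed the same order, with 0.885, 3.18 and 105 CPM, so that replicate 3 was above all Western null libraries. The sign of its difference rests on that library: it was 0.44 ± 1.34 with it (adjusted p = 0.936) and -3.66 without it (adjusted p = 0.0108). Cideb, at 2.43, 2.95 and 3.96 CPM, stayed inside the Western null range (-0.32 ± 0.68; adjusted p = 0.906).

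Plin4 stood at 31.0, 16.3 and 102 CPM, each below the lowest Western null library (184 CPM). Its log2 difference of -1.98 ± 0.62 did not pass (95% interval -3.34 to -0.63; adjusted p = 0.23), and it was -3.04 without replicate 3 (adjusted p = 0.00113). Plin3, at 51.5, 51.7 and 37.4 CPM, was also below Western null in each library (-0.65 ± 0.23; adjusted p = 0.275). It was the 1 member of the 7 for which replicate 3 was the lowest of its group. Together with Cidec, 3 of the 10 members had no overlap on the lower side, which held for 7.87% of genes, and 0 on the higher side (7.69%).

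Plin2 showed the widest gap in absolute level. It stood at 186 and 195 CPM in replicates 1 and 2, below every one of the other 10 libraries, and at 1805 CPM in replicate 3, above every other library. The mean of 729 ± 932 CPM (SD, n = 3) thus describes none of the 3 libraries, and the log2 difference was 0.14 ± 0.71 (adjusted p = 0.962). Without replicate 3 it was -1.80 (adjusted p = 0.000276). Plin5 stood at 45.6, 25.2 and 188 CPM (-0.45 ± 0.55; adjusted p = 0.826; -1.74 and adjusted p = 0.00209 without replicate 3).

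The lipolysis genes had the same split. G0s2 stood at 85.4, 77.4 and 872 CPM, and its difference of 1.04 ± 0.90 (adjusted p = 0.755) turned to -1.05 without replicate 3 (adjusted p = 0.251). Pnpla2 stood at 52.6, 22.0 and 121 CPM (-0.20 ± 0.42; adjusted p = 0.903), so the lipase and its inhibitor were both highest in the same library. Hilpda had 5, 1 and 6 reads, or 1.11, 0.227 and 2.64 CPM (-1.08 ± 0.80; adjusted p = 0.688), too few to place the libraries.

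Without replicate 3, which leaves 2 libraries in the group, 5 of the 10 members were lower and 0 higher: Cidea, Cidec, Plin2, Plin4 and Plin5. Of the genes tested without it 1.71% were lower and 1.62% higher. That library was left out as one of 12 omissions in turn, and it is also the one with the extreme values, so this count is a measure of its weight and not a second test. Without replicate 1, the library with muscle genes, 0 members passed, where 0.202% of genes were lower and 0.145% higher. Muscle is known to express Plin4, Plin5 and Pnpla2, and the part of muscle RNA in the level of replicate 1 was not tested. With replicate 2 alone in the group, an alternative chosen after seeing the data whose spread is taken from the other groups, 5 members were lower (Cidec, Plin2, Plin4, Plin5 and Pnpla2), against 1.24% of genes. Replicate 2 had 50.8% of its counts on the 18S gene and replicate 3 had 0.871%, the highest and the lowest share of all libraries. The part of this in the result was not tested.

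**Figure D3:**
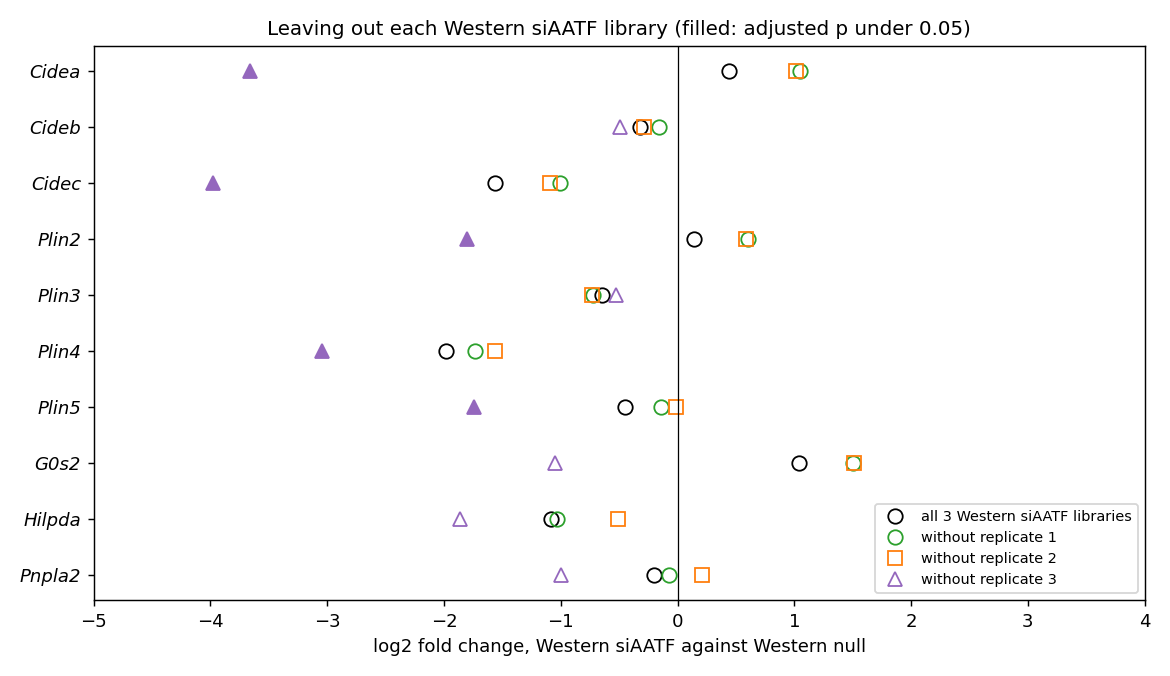
Log2 fold change (x axis) of each gene (y axis) in Western siAATF against Western null with all 3 Western siAATF libraries (circles in black) and without each of them; filled symbols passed at an adjusted p of 0.05. Without replicate 3 the estimates of Cidea, Plin2 and G0s2 cross from above 0 to below 0.

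The third comparison, chow siAATF against chow null, asks the same of the vector on chow. By edgeR's quasi-likelihood test 0 of 10 members passed and 0% of all genes did. At an unadjusted p under 0.05 there were 0 members, against 2.39% of genes, and DESeq2 and limma-voom called 0 members too. The members' median log2 difference was 0.09, against -0.03 over all genes. Plin2 was at 558, 622 and 541 CPM in chow siAATF (0.00 ± 0.71), Cidec at 4.23, 9.17 and 4.39 CPM (-0.03 ± 1.05) and Plin4 at 19.8, 17.5 and 11.9 CPM (-0.10 ± 0.62). For each of these the libraries overlapped those of chow null. Plin5, at 56.9, 57.9 and 77.3 CPM, was the 1 member with no overlap (0.50 ± 0.56; 4.25% of genes were higher in this way), and Plin3 was at 39.3 to 41.3 CPM (0.02 ± 0.23). G0s2 reached 368 CPM in replicate 1 and 121 and 128 CPM in the others (0.66 ± 0.89). Pnpla2 ran from 42.1 to 54.8 CPM, Cideb from 1.32 to 2.83 CPM and Hilpda from 1.05 to 1.59 CPM, all overlapping chow null. All 23 Cidea reads of the group were in replicate 2. Each difference had an adjusted p of 1, and the intervals were wide: that of Cidec ran from -2.41 to 2.35 on the log2 scale.

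Western siAATF against chow siAATF gives the diet under the silencing vector. By edgeR's quasi-likelihood test 0 of 10 members passed, against 0.763% of genes higher and 0.721% lower, and DESeq2 and limma-voom called 0. At an unadjusted p under 0.05 there were 3 members higher, Cidea, Cidec and Plin4, against 9.1% of genes. Their log2 differences were 5.45 ± 1.75, 2.94 ± 1.02 and 1.57 ± 0.62. No member was without overlap between these groups, against 9.24% of genes higher. Without replicate 3 of Western siAATF, Plin2 alone passed, and it was lower (-1.63; adjusted p = 0.00088; 2.7% of genes lower). A smaller diet effect under the vector is not shown by these counts. The interaction of diet and vector tests it, and 0 members passed, against 0.193% of genes; Plin4 had the smallest p (log2 -1.88 ± 0.87; unadjusted p = 0.0526, adjusted p = 0.549). At an unadjusted p under 0.05 there were 0 members, against 9.16% of genes. DESeq2 and limma-voom called 0 too. Without replicate 3 the interaction was lower for 5 members, Cidea, Cidec, Plin2, Plin4 and Plin5, against 1.23% of genes.

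Per kilobase of gene span, G0s2 was the highest member in chow null at 127 ± 48.0 CPM per kb (SD, n = 3), followed by Plin2 at 13.2 ± 2.02. Pnpla2 (8.53 ± 2.56) and Plin5 (7.62 ± 2.00) came next and did not differ beyond their spread, then Plin3 (3.52 ± 0.936), Plin4 (1.88 ± 1.16) and Cidec (0.610 ± 0.251). Cideb (0.406 ± 0.334) and Hilpda (0.236 ± 0.207) were within each other's spread, and Cidea was last at 0.00314 ± 0.00545. In Western null Plin4 (20.6 ± 0.885) and Plin5 (19.4 ± 3.21) followed G0s2 (162 ± 42.3), and Cidec (12.8 ± 0.389) was level with Pnpla2 (13.3 ± 0.218) and Plin2 (15.2 ± 4.03) to within the spread of Plin2. The span includes introns, so a gene with long introns such as Plin2 (43372 bases) is placed lower than by its mRNA, and G0s2 (1029 bases) higher.

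The list of genes that work with the members was compared next. Of 24 droplet partners (assembly factors, other droplet enzymes and lipases), 21 were tested, and in Western null against chow null 1 rose and 2 fell, beside the background of 6.44% and 6.77%. Hsd17b13, a droplet-bound dehydrogenase of hepatocytes, rose from 177 ± 36.6 to 326 ± 40.8 CPM (log2 0.89 ± 0.28; adjusted p = 0.0458). Faf2, which guides membrane proteins between the endoplasmic reticulum and droplets, fell by 0.88 ± 0.22 on the log2 scale, and Acsl3, an acyl-CoA synthetase of nascent droplets, fell by 1.28 ± 0.39. Of 14 transcription regulators of droplet genes 0 passed by edgeR's quasi-likelihood test (5 at an unadjusted p under 0.05 in either direction, as were 28.5% of all genes tested), with Ppara at 0.15 ± 0.25 and Pparg at 0.78 ± 0.34. Of 15 PPAR alpha targets outside the members 14 were tested and 2 rose, Vnn1 (2.61 ± 0.59) and Acadm (1.10 ± 0.29), and 0 fell. The median log2 difference was 0.18 for the partners, 0.12 for the regulators and 0.70 for the targets, against 1.12 for the members. Members and lists were chosen with earlier results of these data known, so these medians are not a test. Between Western siAATF and Western null 0 genes of these 3 lists passed by edgeR's test, with 4 partners, 3 regulators and 0 targets at an unadjusted p under 0.05, where 10.7% of all genes were. Between chow siAATF and chow null 0 passed, and 0 did so unadjusted.

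Markers of other cell types moved with the diet too, where 6.44% of all genes tested were higher and 6.77% lower. Of 8 macrophage markers 5 were higher in Western null and 0 lower, led by Gpnmb (log2 7.59 ± 0.55), Trem2 (6.88 ± 0.69) and Cd68 (2.15 ± 0.42), with a summed level of 592 to 878 CPM against 195 to 294 CPM in chow null. Macrophages with lipid also carry Plin2 and other droplet proteins, and their part in the members' levels was not tested. Of 6 stellate markers 2 rose among the 5 tested, Pdgfrb and Col1a1 (summed 414 to 614 CPM against 145 to 177 CPM; Lrat at 0 in all libraries). Of 8 hepatocyte markers 2 fell, Tat and Hnf4a (summed 53600 to 60740 CPM against 69450 to 96160 CPM). Fat tissue expresses Cidec, Cidea, Plin4 and G0s2. The 7 adipocyte markers outside the members summed to 1.6 to 8.79 CPM in chow null and 6.42 to 6.65 CPM in Western null. Of these, Adipoq, Lep and Retn were at 0 in all 6 null libraries. Cfd (adipsin) stood at 0, 0 and 0.174 CPM in chow null and 3.46, 5.11 and 4.76 CPM in Western null (log2 5.38 ± 2.03; adjusted p = 0.112), and Slc2a4 at 0 in each chow null library and 1.48, 0.341 and 0.539 CPM in Western null. Adrb3 went the other way, at 1.6, 3.95 and 8.53 CPM in chow null and 1.48, 1.02 and 1.35 CPM in Western null. Plin1 stood at 0, 0 and 0.0871 CPM in chow null and at 0 in each Western null library. The part of fat cells in the members' levels was not tested. Of the brown fat markers outside the members Ucp1 was at 0 in all 12, Elovl3 fell by 4.40 ± 0.67 on the log2 scale in Western null, and Ppara did not pass.

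In Western siAATF replicate 3 the 7 adipocyte markers outside the members summed to 116 CPM, against 1.6 to 19.2 CPM in the other 11 libraries. Of these 116 CPM, 102 came from Cfd, and Adipoq, Lep, Retn and Plin1 were at 0 there. Those genes were highest in replicate 1, at 0.663, 0.442, 0.221 and 0.442 CPM, with only 4, 3, 1 and 5 reads over all 12 libraries. Slc2a4 was also highest in replicate 1 (10.8 CPM), while Cfd and Adrb3 were lower there than in replicate 3 (2.43 and 4.20 against 102 and 14.1 CPM). The 8 macrophage markers summed to 859 CPM in replicate 3, of which 593 CPM was Lpl, the lipoprotein lipase gene. In replicates 1 and 2 they summed to 791 and 610 CPM, with Lpl at 209 and 88.7 CPM. Of the 8 macrophage markers 2 were lower in Western siAATF than in Western null and 0 higher, against 0.561% and 0.31% of all genes. The 2 were Gpnmb (log2 -6.04 ± 0.50) and Trem2 (-2.84 ± 0.50), both markers of lipid-laden macrophages. They were low in all 3 Western siAATF libraries: Gpnmb stood at 0.885, 0.681 and 0.440 CPM and Trem2 at 3.98, 1.59 and 1.76 CPM, against 43.0 to 51.9 and 15.8 to 21.5 CPM in Western null. In replicate 3 Cidea, Plin2, Plin5, G0s2 and Pnpla2 lay above the Western null range at the same time. Cidec, Plin4 and Plin3 lay below that range, and Cideb and Hilpda lay within it. The part of these cells in the members' levels was not tested. The hepatocyte markers of replicate 3 summed to 46220 CPM, the lowest of the 12.

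**Figure D4:**
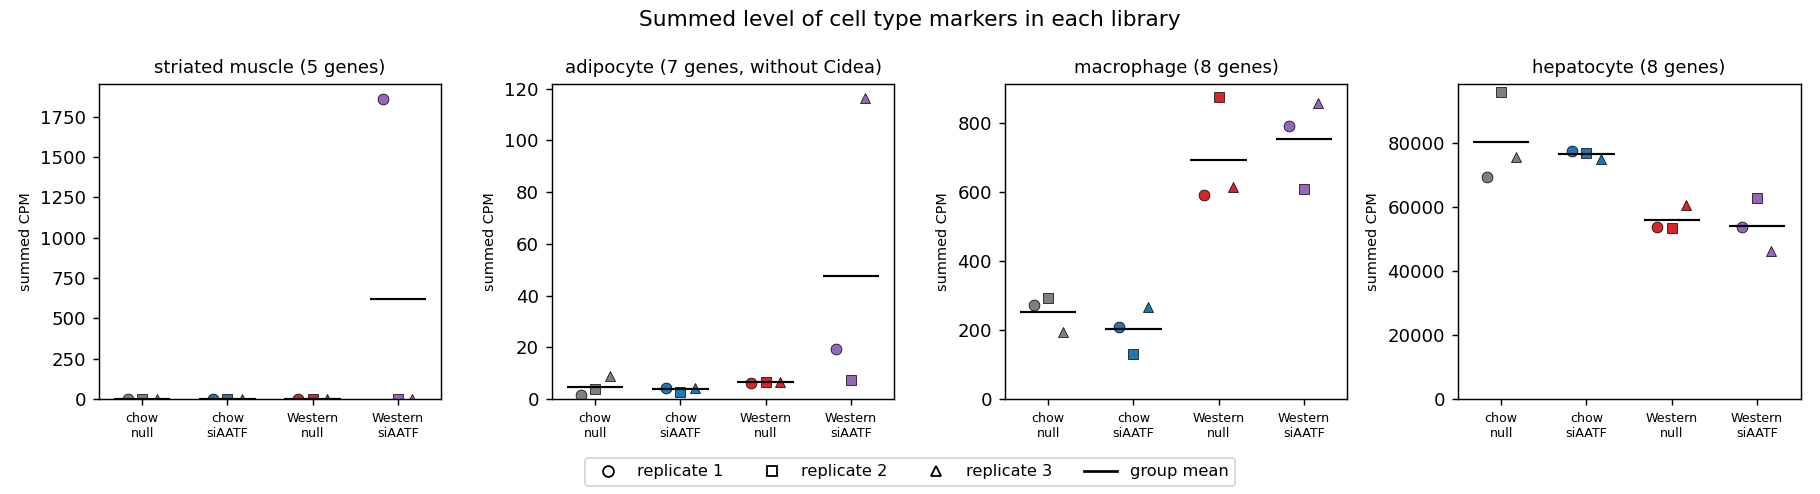
Summed CPM (y axis, linear from 0) of 4 marker lists in each library by group (x axis); shapes give the replicate number and bars are means of 3. Western siAATF replicate 1 stands alone in the muscle panel and replicate 3 in the adipocyte panel, where Cfd makes up 102 of 116 CPM.

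The genes whose level over the 12 libraries was most like that of a called member were sought among 9122 genes. For Cidec these were Cryz (Pearson r = 0.967 on log2 CPM), Osbpl3 (0.966) and Slc25a5 (0.953). For Plin4 they were Rgs16 (0.989), Idh2 (0.964) and Tns3 (0.963), and for Plin3 they were Rragd (0.943), Mmp12 (0.941) and Myo9b (0.938). These values describe 12 libraries in 4 groups that share diet, library and scaling.

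On GRCm39 the members lie as follows in the count table, with the whole span counted. Cidec spans chromosome 6, 113401595 to 113412721 (minus strand), and Plin2 chromosome 4, 86545147 to 86588518 (minus). Plin4 (56407587 to 56416947), Plin5 (56418601 to 56424606) and Plin3 (56585962 to 56597511) lie on the minus strand of chromosome 17, the first 2 close together and Plin3 farther along. Plin4 and Plin3 rose by the test, and Plin5 did not pass. G0s2 lies on chromosome 1, Pnpla2 on 7 and Cideb on 14. Overlap with other genes covers 12.2% of the Plin2 span (Gm12551), 7.9% of that of Cidec (Gm52871) and 0.203% of that of Plin4, and 0% for Plin3, Plin5, G0s2, Hilpda and Pnpla2.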

How the data were processed

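RNA-seq counts of 12 mouse liver libraries were used. The deposited table holds whole-number counts of reads per gene. Per the submitters' processing notes, STAR 2.7.11, featureCounts 2.0.1, R 4.3.2 and DESeq2 1.42.0 were used on GRCm39; the sources used here give neither strand nor overlap settings. The listed length of every gene is its whole span, so introns were counted.

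From the deposited counts, genes were kept with filterByExpr and tested in 1 fit of all 12 libraries (4 group means, 8 residual degrees of freedom) with edgeR 4.0.16's quasi-likelihood test in R 4.3.3 (TMM, robust), with Benjamini-Hochberg adjustment over all 11934 genes and a threshold of 0.05. Fold changes are log2 ± SE. Depth limits precision: 3 counts are 0.185 to 1.69 CPM, and intervals from reads cover counting error only. Alternatives were DESeq2 1.42.0, limma 3.58.1 (voom), other filters and scaling, a replicate block and leaving out libraries. The members and lists were chosen with earlier results of these data known. All 10 members are named, the 3 list genes with the smallest adjusted p where past the threshold, and 3 genes of similar pattern per called member. Other genes, such as Ppara, Pparg and single markers, were named after their values were seen. Sequence of Cidea is not reported here.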

Additional observations from a re-analysis of the deposited data

How the results depend on the processing

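With alternatives to the analysis, the diet calls moved from 3 members to 5 with no filter on low counts and in the compared groups alone. Leaving out 1 library gave 1 to 5. Calls without both Western siAATF replicates 1 and 3 (an alternative chosen after seeing the data) are not given, since replicate 2 stood alone in its group. The remaining counts for the diet follow. DESeq2 called 2 members there, against 14.2% of all genes, and gave no adjusted p for Cidea, Cidec and Plin2. With 1 library left out, 5.42% to 18.2% of all genes were called for the diet. Leaving out libraries over 25% 18S removed chow null replicates 1 (25.2%) and 2 (30.4%), chow siAATF replicate 1 (41.45%) and Western siAATF replicate 2 (50.8%). Replicate 3 then stood alone in chow null. Western siAATF kept only replicates 1 and 3, the library with muscle genes and the one with the extreme values. The log2 difference of Cidec for the diet was 4.24 in this setting, and a call cannot be read with 1 library in a group. In Western siAATF against Western null, DESeq2 called 1, no filter gave 3, and leaving out 1 library gave 0 to 5. In Western siAATF against chow siAATF these last 3 settings gave 3, 2 and 0 to 1, and for the interaction 2, 6 and 0 to 5. Chow siAATF against chow null gave 0 member calls in every setting run. The calls over all genes moved too. For the diet they were 13.2% as reported, 8.83% with no filter and 17% in the compared groups. Against Western null they were 0.871% as reported, 1.95% by DESeq2 and 2.57% with no filter. Against chow siAATF they were 1.48% and 3.75% with no filter, and for the interaction 0.193% and 1.49%. Without Western siAATF replicate 3 they were 18.2%, 3.34%, 5.95% and 2.38% in these 4 comparisons. The cause of these shifts was not tested. Depth limits Cidea, Cideb and Hilpda most, with few reads in most libraries.

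Deviations from the group means had correlations of -0.378 to 0.259 over 18 pairs with the same replicate number (median -0.0539). Over 36 pairs with different numbers they ran from -0.313 to 0.463 (median 0.00874). A pairing by replicate number was thus not seen, but groups of 3 cannot exclude it. A replicate block called 3 members for the diet and 0 in the other comparisons, and the all-gene counts fell from 1577 to 1157 for the diet, from 104 to 64 and from 177 to 71 in the siAATF comparisons, and from 23 to 14 for the interaction.

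The sign of some estimates changed, and none of these had passed the threshold in the fit of all 12 libraries. In Western siAATF against Western null, limma-voom gave -2.36 for Cidea, 0.27 for Cideb and -0.67 for Plin2, the replicate block -0.82 for Cidea and -0.27 for Plin2, the 18S exclusion 0.0039 for Plin5 and 0.23 for Pnpla2, and leaving out replicates 1 and 3 gave -2.98 for Cidea, -1.74 for Plin2 and -1.09 for G0s2. In chow siAATF against chow null, the block gave -0.03 for Cideb, 0.06 for Cidec, -0.01 for Plin2 and 0.15 for Plin4, limma-voom 0.17 for Cidec, -8e-05 for Plin2 and 0.15 for Plin4, the 18S exclusion -0.35 for Cideb, and leaving out Western siAATF replicates 1 and 3 gave 0.01 for Cidec. In Western siAATF against chow siAATF, limma-voom gave -0.49 for Plin2, -0.16 for Plin5 and -0.01 for G0s2, the block -0.06 for Plin2, the 18S exclusion 0.47 for Hilpda, and leaving out replicates 1 and 3 gave -1.56 for Plin2, -0.01 for Plin4, -1.35 for Plin5, -1.41 for G0s2 and -1.16 for Pnpla2. For the interaction, limma-voom gave 0.04 for Cideb, -0.67 for Plin2 and -0.42 for G0s2, the block -0.26 for Plin2, the 18S exclusion 0.08 for Cideb, and leaving out replicates 1 and 3 gave -1.75 for Plin2 and -1.77 for G0s2.

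With 1 library left out, the estimates that crossed 0 had these ranges. For the diet, Cideb ran from -0.25 to 1.72 and Plin2 from -0.02 to 0.33. In Western siAATF against Western null, Cidea ran from -3.66 to 1.05, Cideb from -0.77 to 0.81, Plin2 from -1.80 to 0.60, G0s2 from -1.05 to 1.51 and Pnpla2 from -1.0 to 0.21. In chow siAATF against chow null, Cidea ran from -2.27 to 5.25, Cideb from -0.13 to 0.99, Cidec from -0.55 to 0.20, Plin2 from -0.07 to 0.13, Plin3 from -0.09 to 0.24, Plin4 from -0.53 to 0.57, G0s2 from -0.05 to 0.98 and Pnpla2 from -0.12 to 0.29. In Western siAATF against chow siAATF, Plin2 ran from -1.63 to 0.79, Plin5 from -0.89 to 0.84, G0s2 from -1.37 to 1.45, Hilpda from -1.03 to 0.35 and Pnpla2 from -0.43 to 0.81. For the interaction, Cidea ran from -6.52 to 2.72, Cideb from -1.31 to 0.65, Plin2 from -1.83 to 0.59, G0s2 from -1.74 to 1.09 and Pnpla2 from -1.10 to 0.15. The lowest value for Cidea, Plin2, G0s2 and Pnpla2 against Western null came without Western siAATF replicate 3. Without that library some reversed estimates passed by edgeR's quasi-likelihood test. They were Cidea and Plin2 against Western null, Plin2 against chow siAATF, and Plin2 for the interaction (-1.83; adjusted p = 0.0042).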
